A study of Mus musculus with 4 samples.

Results

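The Zbtb genes encode transcription factors that carry a BTB domain near one end and zinc fingers near the other. All protein-coding genes whose mouse symbol starts with Zbtb were taken, apart from 1 that was set aside, which gave 40 genes of the 50600 in the tables and of 21764 protein-coding genes. The rule used names only and no measured value, but it was set with earlier results of these data known. They were measured by RNA sequencing in 4 libraries of mouse primary cells labelled T-helper 17, strain C57BL/6NJ, which form 1 group with no control. The labels give no treatment, age or sex, share 1 donor record among the 4 replicates, and link to a protocol for CD4 T cell differentiation; the hour tag in the alignment names is 0 for every library. Each library has its own biosample record, but the labels name no separate cultures or animals, so p-values measure only the spread between these libraries, part of which may be technical.

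The BTB domain lets these proteins pair with each other and recruit corepressors such as NCoR, BCOR and SIN3A, and histone deacetylases. The zinc fingers choose the DNA sites, and most members are known as repressors. In lymphocytes several members act as fate switches: they set the choice between B and T cells, innate-like and conventional T cells, or dendritic and other myeloid cells. A few others bind methylated CpG sites, telomere repeats or the cell cycle inhibitor gene Cdkn1a. Zbtb8os carries the family symbol only because it lies on the strand opposite Zbtb8a: it encodes an archease-type cofactor of the tRNA ligase and no BTB zinc finger protein.

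Stretches of DNA before the start of 5 members are shown as examples from both ends of the levels: 3 genes at high levels, Zbtb4, Zbtb11 and Zbtb25, and 2 that were nearly silent, Zbtb32 and Zbtb8b. Each is RefSeq sequence of the GRCm38.p6 build, read 5′ to 3′ on the gene's strand, with CG dinucleotides in capitals. Zbtb4 lies at chr11:69765662-69765911 on the plus strand, Zbtb11 at chr16:55973554-55973803 plus, Zbtb25 at chr12:76369603-76369810 minus, Zbtb32 at chr7:30598910-30599159 minus and Zbtb8b at chr4:129440854-129441068 minus.
Zbtb4: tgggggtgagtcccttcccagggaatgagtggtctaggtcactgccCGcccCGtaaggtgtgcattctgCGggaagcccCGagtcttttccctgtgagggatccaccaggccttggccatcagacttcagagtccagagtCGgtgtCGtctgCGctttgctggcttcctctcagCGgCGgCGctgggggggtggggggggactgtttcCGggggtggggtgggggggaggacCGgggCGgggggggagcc
Zbtb11: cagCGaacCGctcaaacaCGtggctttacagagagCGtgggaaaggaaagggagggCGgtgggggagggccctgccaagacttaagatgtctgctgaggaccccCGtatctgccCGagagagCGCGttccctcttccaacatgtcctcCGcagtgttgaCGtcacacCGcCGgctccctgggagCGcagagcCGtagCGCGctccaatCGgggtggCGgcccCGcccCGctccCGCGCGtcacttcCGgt
Zbtb25: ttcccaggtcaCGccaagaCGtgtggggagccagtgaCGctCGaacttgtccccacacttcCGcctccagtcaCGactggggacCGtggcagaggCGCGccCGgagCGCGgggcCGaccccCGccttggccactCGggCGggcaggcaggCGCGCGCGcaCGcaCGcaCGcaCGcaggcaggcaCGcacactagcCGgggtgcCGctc
Zbtb32: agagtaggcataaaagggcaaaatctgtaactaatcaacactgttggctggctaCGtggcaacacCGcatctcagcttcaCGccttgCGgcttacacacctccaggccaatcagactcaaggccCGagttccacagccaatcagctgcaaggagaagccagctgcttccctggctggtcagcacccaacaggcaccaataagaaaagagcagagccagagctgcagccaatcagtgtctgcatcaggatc
Zbtb8b: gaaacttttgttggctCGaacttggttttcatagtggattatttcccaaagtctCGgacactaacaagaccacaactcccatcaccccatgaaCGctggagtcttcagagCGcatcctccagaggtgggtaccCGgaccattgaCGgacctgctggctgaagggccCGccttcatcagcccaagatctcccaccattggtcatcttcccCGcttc
The stretches held 13 CG dinucleotides in 250 bases for Zbtb4, 25 in 250 for Zbtb11, 27 in 208 for Zbtb25, 5 in 250 for Zbtb32 and 8 in 215 for Zbtb8b. The stretches of Zbtb25 and Zbtb8b are shorter than 250 bases because the rest of each window lies inside the gene as the deposited tables draw it.

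Total counts per library were 29041979, 35018552, 48808978 and 45490373 in replicates 1 to 4. Levels are given as TPM, which divides counts by exon length and brings every library to one common total, computed from the deposited counts and the exon length in the same tables. All 8 genes of a fixed list of alpha-beta CD4 T cell markers were at 1 TPM or more in every library (Cd4 969 ± 34.2 TPM, SD, n = 4), as were 3 of 9 markers of Th17 cells, whose summed level was 15.1 to 26.7 TPM. All 5 markers of naive or resting T cells were at 1 TPM or more in every library, with a summed level of 5426 to 5999 TPM. The libraries fell into 2 kinds by Xist, the RNA that coats an inactive X chromosome, which stood at 223.5 and 215.0 TPM in replicates 1 and 2 and at 0.294 and 0.445 TPM in replicates 3 and 4. That goes against the single donor record the 4 libraries share. They are treated as 1 group as labelled. Among the 34 Zbtb genes at 1 TPM in every library, the values of replicates 1 and 2 did not overlap those of replicates 3 and 4 for 10, against 32.4% of the 9933 protein-coding genes at that level. Higher in replicates 1 and 2 were 7 of them, Zbtb20, Zbtb22, Zbtb3, Zbtb37, Zbtb49, Zbtb5 and Zbtb8os, and lower there were Zbtb1, Zbtb12 and Zbtb14. The share was near the background, and a link with the Xist division was not tested.

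Most of the family was transcribed at middling levels in these cells. In every library 34 of the 40 genes, 85%, reached 1 TPM, against 45.6% of protein-coding genes, and 28 of them, 70%, reached 10 TPM, against 35.6%. None of the 40 reached 100 TPM in any library, a level that 1892 protein-coding genes reached in at least 1 library. The median over the 40 mean levels was 17.6 TPM, against 0.355 TPM over all protein-coding genes. Zfp genes, the far larger set of zinc finger genes named by that symbol, were picked for comparison after values were seen: 293 of 394, 74.4%, reached 1 TPM, with a median of 10.1 TPM. Among genes at 1 TPM in every library the order turned round, with a median of 24 TPM over the 34 Zbtb genes and 34.3 TPM over all 9933. By mean level 2 genes lay over 50 TPM, 27 between 10 and 50, 5 between 1 and 10 and 6 under 1, Zbtb9 among them, which could not be counted. The 40 genes together held 0.168% ± 0.00256 of all counts (SD, n = 4) and summed to 869 ± 10.7 TPM. Their summed output therefore varied little between libraries.

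**Figure D1:**
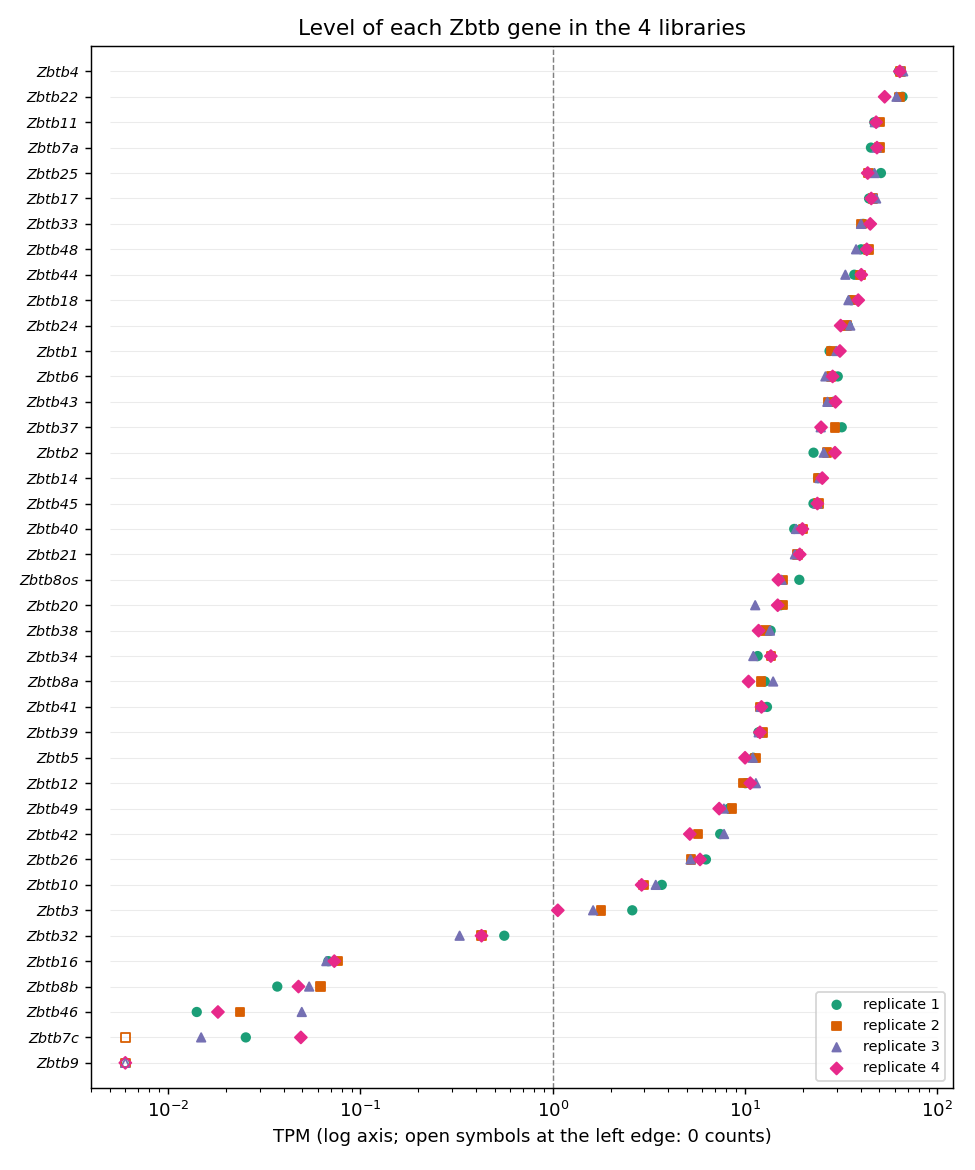
Level of each Zbtb gene in TPM on a log axis, 1 row per gene in order of its mean, with 1 symbol for each of the 4 replicates; the dashed line is 1 TPM and open symbols stand for 0 counts. The 34 genes down to Zbtb3 lie right of the line in every library and 6 lie left of it.

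The methyl-CpG readers were all present, and 1 of them had the highest mean of the 40 genes, although its range overlapped that of Zbtb22. Zbtb4, whose zinc fingers bind methylated CpG and which represses transcription there (ENSMUSG00000018750, chromosome 11, 69765912 to 69784023, plus strand, mm10), had 63.0, 64.2, 66.4 and 63.8 TPM in replicates 1 to 4 (64.4 ± 1.46 TPM, SD, n = 4). Zbtb33, the X-linked gene of Kaiso, had 41.2, 40.2, 40.1 and 44.8 TPM. Zbtb38, a relative of both that also binds methylated DNA, had 13.6, 12.8, 13.5 and 11.8 TPM. The 3 sets of values did not overlap. Within each library Zbtb4 stood above Zbtb33 by a log2 ratio of 0.63 ± 0.09, a factor of 1.55, and above Zbtb38 by 2.31 ± 0.09, a factor of 4.96 (SD, n = 4). Zbtb33 was in the same range in the Xist-high libraries, replicates 1 and 2, as in replicate 3, and was highest in replicate 4.

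Of the 10 members on the list of lymphocyte regulators, 7 were at 1 TPM or more in every library, and their summed level differed little between libraries, from 253.7 to 254.9 TPM. Zbtb7a, the LRF gene whose product holds early progenitors to the B cell fate by opposing Notch signals, had 45.2, 50.1, 48.4 and 48.5 TPM in replicates 1 to 4. Zbtb25, which represses NFAT target genes in human T cells, had 50.9, 43.9, 47.1 and 43.4 TPM. Zbtb17, which encodes the MYC partner MIZ1 and is needed by early lymphocytes, had 44.2, 46.3, 48.0 and 45.3 TPM. These 3 genes overlapped one another in every pairing, so their order does not exceed the spread between libraries.

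Zbtb18, the gene of the repressor RP58, best known from cortical neurons, followed with 35.7, 36.5, 34.5 and 38.8 TPM. Zbtb24, mutated in a form of the human ICF syndrome of immunodeficiency and centromere instability, had 34.3, 33.6, 35.2 and 31.4 TPM. Zbtb1, required in mice for lymphocyte development, had 27.5, 28.1, 29.9 and 31.1 TPM. Zbtb24 was above Zbtb1 in each library, although only just in replicate 4, and the ranges did not overlap. Zbtb20, a repressor that in B lineage cells supports long-lived plasma cells (ENSMUSG00000022708, chromosome 16, 42875881 to 43642602, plus strand, mm10), was lower at 15.3, 15.6, 11.3 and 14.8 TPM, with replicate 3 apart from the rest.

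The other 3 lymphocyte regulators, those tied to innate-like T cells, activated lymphocytes and dendritic cells, were close to the limit of counting. Zbtb32, a repressor that restrains cytokine genes in activated T cells, had 0.560, 0.427, 0.328 and 0.427 TPM from 45 counts in all (95% exact Poisson interval 32.8 to 60.2). Zbtb16, the PLZF gene that directs invariant NKT and other innate-like T cells, had 17 counts (9.90 to 27.2), 3, 4, 5 and 5 in replicates 1 to 4. Zbtb46, a gene of conventional dendritic cells, had 11 counts (5.49 to 19.7), 1, 2, 6 and 2 in replicates 1 to 4. The intervals cover counting error only. In bulk RNA fewer cells of a type and less RNA per cell cannot be told apart, so these values do not say whether a few cells held much of the RNA.

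Markers of the cells that use these genes were measured beside them. Of 6 markers of invariant NKT and innate-like T cells, Zbtb16 itself among them, 4 were at 1 TPM in every library. The summed level of the 6 was 22.8 to 27.5 TPM, most of it Sox4 (12.6 ± 1.04 TPM) and Trdc (9.37 ± 1.12 TPM). Cd160 and Cxcr6 averaged 2.03 and 1.39 TPM, and the NK receptor gene Klrb1c had 18 counts. Of 9 dendritic cell markers, Zbtb46 among them, only the antigen presentation gene Cd74 was at 1 TPM in every library (7.79 ± 1.64 TPM). The sum over the 9 was 8.29 to 12.1 TPM. Xcr1 and Clec9a had 0 counts in every library, where 0 allows up to 3 counts, and Siglech had 1 count in all. H2-Aa had 82 counts, H2-Ab1 63, Itgax 52 and Flt3 34. Of 8 B and plasma cell markers, set beside Zbtb20, only Xbp1 reached 1 TPM in every library, with a summed level of 43.9 to 48.9 TPM, 43.1 ± 2.05 TPM of it Xbp1, while the B cell gene Ms4a1 had 6 counts. The part of other cells in the levels of Zbtb16, Zbtb46 and Zbtb20 was not tested.

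Members tied to Cdkn1a and to telomeres covered a wide range. Zbtb2, which in human cells represses the p53 pathway and Cdkn1a, had 22.7, 26.6, 25.7 and 29.4 TPM in replicates 1 to 4. Zbtb5, another repressor of Cdkn1a, had 11.05, 11.35, 10.97 and 10.005 TPM. Zbtb49, which in human cells activates it, had 8.24, 8.57, 7.77 and 7.34 TPM. The ranges of the 3 genes did not overlap, with Zbtb2 highest in each library. Zbtb48, the gene of TZAP, which binds and trims long telomeres, had 40.1, 43.8, 37.8 and 42.9 TPM. Zbtb10, whose product binds variant telomere repeats in human cells, had 3.69, 2.96, 3.43 and 2.90 TPM, less than any value of Zbtb48.

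The remaining genes of the upper ranks have less settled roles. Zbtb22, in the major histocompatibility region of chromosome 17, had 65.9, 63.6, 61.3 and 53.2 TPM in replicates 1 to 4 and could not be ranked against Zbtb4, since their ranges overlapped. Zbtb11, needed for neutrophil development in zebrafish, had 47.0, 50.2, 47.3 and 48.0 TPM. Zbtb44 had 36.99, 39.75, 33.25 and 40.22 TPM. Each of the 3 was above 30 TPM in every library, and Zbtb44 was lowest in replicate 3. Zbtb6 had 30.34, 27.97, 26.18 and 28.54 TPM, Zbtb43 had 28.8, 27.1, 26.8 and 29.5 TPM, and the 2 could not be ordered. Zbtb37 (ENSMUSG00000043467, chromosome 1, 161002922 to 161034849, minus strand, mm10) had 31.8 and 29.3 TPM in replicates 1 and 2 and 24.7 and 24.8 TPM in replicates 3 and 4. That gap falls between the pairs of libraries that Xist sets apart. Such a gap, in either direction, was found for 10 of the 34 Zbtb genes and 32.4% of protein-coding genes at 1 TPM. Zbtb45 had 22.7, 24.1, 23.8 and 23.8 TPM, and Zbtb14, Zbtb40 and Zbtb21 averaged 24.4, 19.1 and 18.8 TPM.

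Below them came Zbtb8os, the archease gene, with 19.2, 15.8, 15.5 and 14.9 TPM, then Zbtb34 with 11.63, 13.69, 11.05 and 13.62 TPM and Zbtb8a with 12.7, 12.1, 14.0 and 10.4 TPM. Zbtb41, Zbtb39 and Zbtb12 averaged 12.3, 11.9 and 10.5 TPM. Zbtb42, a relative of Zbtb18, had 7.43, 5.71, 7.78 and 5.16 TPM, and Zbtb26 had 6.26, 5.23, 5.21 and 5.84 TPM. Lowest of the 34 was Zbtb3 with 2.59, 1.78, 1.62 and 1.06 TPM, resting on 155 counts. Each of the 3 lowest of these, Zbtb26, Zbtb10 and Zbtb3, had a range clear of the next gene below it. Zbtb8b had 15 counts in all (8.40 to 24.7), 2, 4, 5 and 4 in replicates 1 to 4, and Zbtb7c had 5 (1.62 to 11.7), 1, 0, 1 and 3. Both were far under 1 TPM in every library.

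Zbtb9 had 0 counts in every library, and its level could not be read from these tables. Of its 2798 exon bases 2748, 98.2%, are shared on the same strand with Ggnbp1, which leaves 50 bases of its own, and the counting command in the file headers names no option to count a fragment that fits several genes. Ggnbp1 itself had 2.94 ± 0.247 TPM (SD, n = 4). The same setting touches 5 other members far less: Zbtb6 shares 8.84% of its exon bases and Zbtb26 4.73%, both with each other, Zbtb22 shares 2.28%, Zbtb11 1.71% and Zbtb20 0.270%. Exon bases on the opposite strand are shared by 12 members, most in Zbtb37 with 15.6%, Zbtb5 with 12.95% and Zbtb8a with 11.4%, and the counting was set to use strand.

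Along the whole order of 40 genes neighbours were often not separable. Of the 39 neighbouring pairs 14 kept their order in all 4 libraries and 25 did not, and the ranges of 10 pairs did not overlap. The steps without overlap were those from Zbtb22 to Zbtb11, Zbtb24 to Zbtb1, Zbtb45 to Zbtb40, Zbtb39 to Zbtb5 and Zbtb12 to Zbtb49, and each step from Zbtb26 down to Zbtb8b. The last of these, from Zbtb16 to Zbtb8b, rests on 17 against 15 counts, whose counting intervals overlap, so those genes were not separable at this depth. Level in TPM, which is already divided by exon length, did not follow exon length among the 34 genes at 1 TPM. Spearman's rho was -0.02 across genes, which are not independent replicates.

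The members that share ancestry or a locus were compared within each library in 10 pairs, with a pseudocount of 0.1 TPM. Every pair held the same direction in 4 of 4 libraries, and the exact two-sided sign-flip permutation test gave p = 0.13 for each, adjusted p = 0.13 over the 10 pairs, which is the smallest p that 4 libraries allow. So no pair can pass 0.05 in this design. Among relatives, Zbtb18 exceeded Zbtb42 by a log2 ratio of 2.48 ± 0.35 (SD, n = 4), a factor of 5.58, and Zbtb20 lay under Zbtb45 at -0.73 ± 0.23. Without a correction for gene length the second of these turned round to 2.13, since the exons of Zbtb20 add up to 30730 bases against 4210 for Zbtb45. Zbtb7a exceeded Zbtb7c at 8.63 ± 0.27 and Zbtb16 lay under Zbtb32 at -1.63 ± 0.25. Both ratios lean on the pseudocount, because Zbtb7c and Zbtb16 had 5 and 17 counts: with a pseudocount of 1 TPM they came to 5.58 and -0.42.

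Neighbours on a chromosome also stood at unequal levels. Zbtb25 and Zbtb1 point away from each other on chromosome 12 with 663 bases between them, so the bases printed for Zbtb25 lie in the gap between both genes. Zbtb1 lay under Zbtb25 at a log2 ratio of -0.66 ± 0.17 (SD, n = 4), a factor of 1.59, and turned round to 1.29 without length correction, since Zbtb1 has 12190 exon bases against 3131 for Zbtb25. Zbtb6 and Zbtb26, of which the second lies within the first on the same strand of chromosome 2 over 10968 bases, differed by 2.31 ± 0.06, a factor of 4.95. Zbtb34 lay under Zbtb43, 18962 bases away on the same chromosome, at -1.17 ± 0.15. Zbtb8a exceeded Zbtb8b, 47648 bases away on chromosome 4, at 6.36 ± 0.19, and at 3.66 with a pseudocount of 1 TPM. Zbtb8b, with 15 counts, was the nearly silent gene of that pair.

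**Figure D2:**
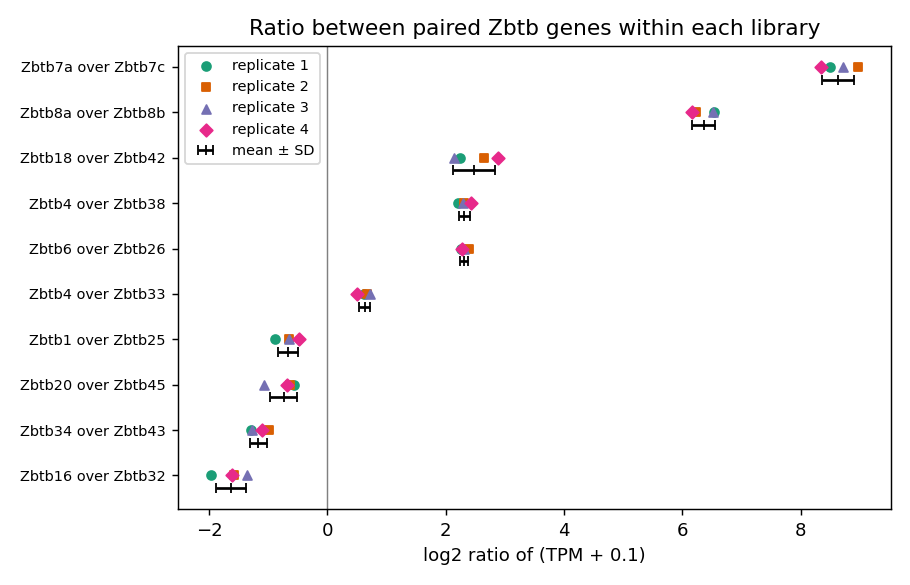
The log2 ratio of TPM, with 0.1 TPM added, between the first and second gene of 10 pairs, with 1 symbol for each of the 4 replicates and the mean ± SD under them. All 4 symbols of a pair lie on the same side of 0, and the ratios run from -1.63 for Zbtb16 over Zbtb32 to 8.63 for Zbtb7a over Zbtb7c.

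Levels of the family varied little between the 4 libraries. Among the 34 genes at 1 TPM the coefficient of variation, the SD over the mean, had a median of 6.28% and ran between 2.19% and 35.8%, against a median of 6.66% for the 9933 protein-coding genes at that level. It was below 10% for 25 of the 34 genes and for 7180 of the 9933, so that share was near the background. For 4 of the 34 it was no larger than counting error alone gives, a count not made over all genes. The highest library exceeded the lowest by a factor of 1.16 at the median, and by over 1.5 for 2 genes. Averaged over the 34 genes, the log2 deviation from the 4-library mean was 0.02, -0.01, 0.00 and -0.02 in replicates 1 to 4, against 0.02, 0.00, -0.01 and -0.02 over all genes tested. No replicate was therefore high or low for the family as a whole.

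No member was called for spread beyond that of genes of like level. By edgeR's quasi-likelihood dispersions, in a one-sided F test with Benjamini-Hochberg adjustment over 12464 genes, 0 of the 34 members tested had an adjusted p below 0.05, against 0.193% of all genes (24). At an unadjusted p below 0.05 there were 2 of 34, 5.88%, against 5.34% of all genes, so the share was near the background. DESeq2 marked 0 of the 34 as dispersion outliers, against 0.866% of all genes. The 6 members under 1 TPM were not tested.

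The 2 members with low unadjusted p were Zbtb20 and Zbtb37. Zbtb20 had the lowest p of the members tested (unadjusted 0.0175, adjusted 0.688 by edgeR with Benjamini-Hochberg adjustment). Its log2 deviation was -0.30 in replicate 3 and 0.08 to 0.12 in the others. It was called when replicate 4 was left out (adjusted p = 0.0491 by the same edgeR test) and when no filter on low counts was used (adjusted p = 0.0422). Those settings also raised the calls over all genes to 86 and 349, and under the other alternatives the adjusted p of Zbtb20 ran between 0.593 and 0.999, highest without replicate 3. Zbtb37 (unadjusted 0.0467, adjusted 0.926) was at 0.19 and 0.07 in replicates 1 and 2 and at -0.13 in both others. Zbtb3 had the largest coefficient of variation, 35.8%, followed by Zbtb42 with 19.6%, Zbtb20 with 14.1%, Zbtb37 with 12.6% and Zbtb8a with 11.99%. For Zbtb3 counting error alone gives 16.4%, and its adjusted p was 0.995 by edgeR's test.

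**Figure D3:**
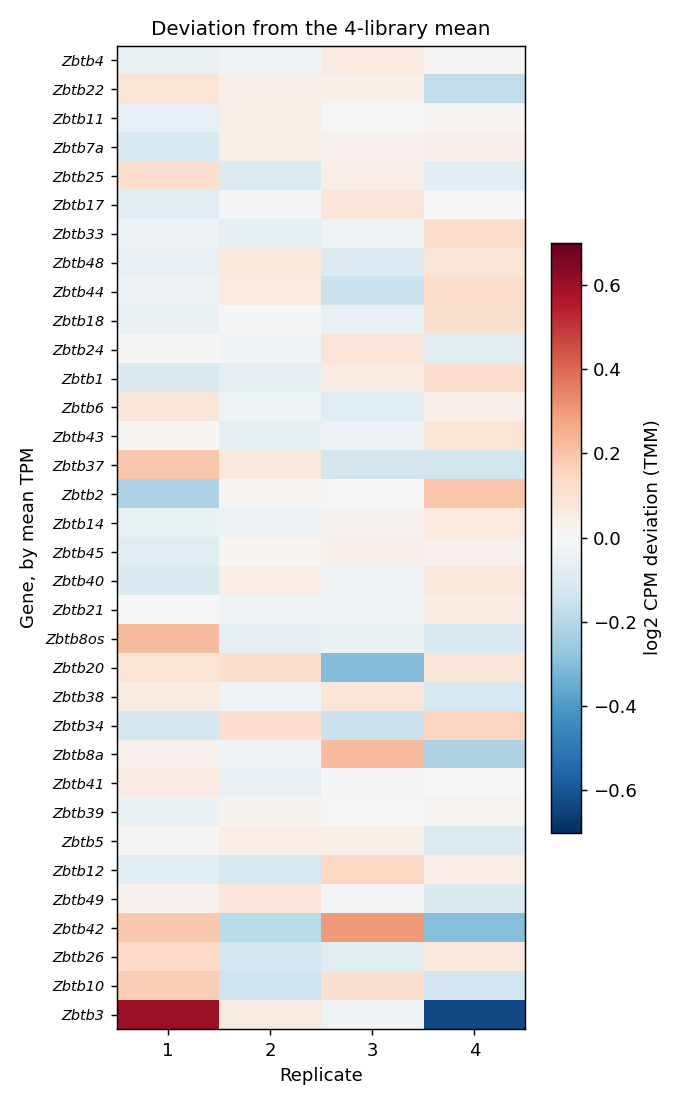
Deviation of each of the 34 Zbtb genes at 1 TPM from its own 4-library mean, in log2 CPM after TMM scaling, with genes down the page by mean level and replicates 1 to 4 across; red is above the mean and blue below. Zbtb3 stands out with 0.60 in replicate 1 and -0.63 in replicate 4, and Zbtb20 with -0.30 in replicate 3.

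**Figure D4:**
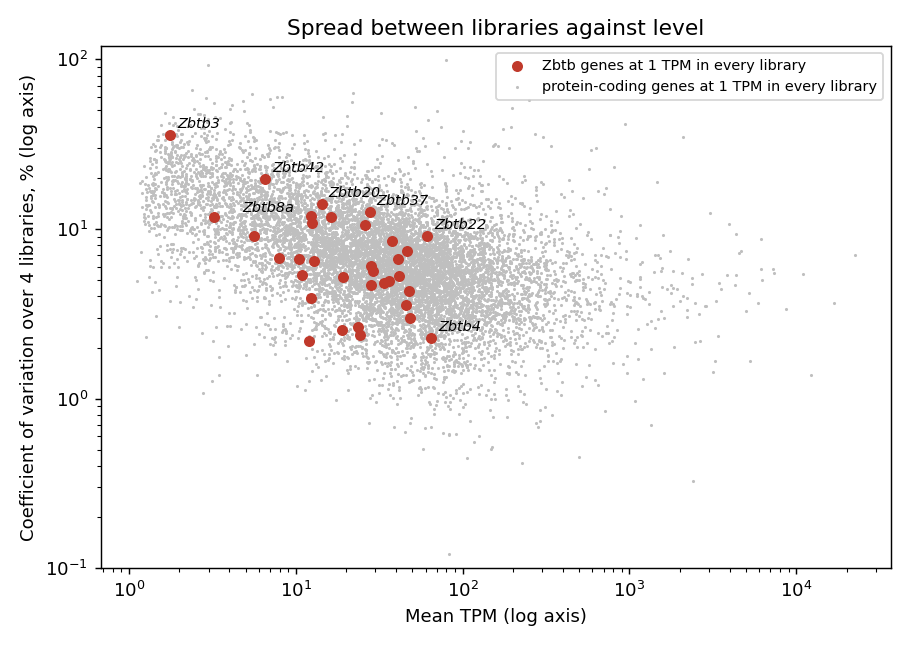
Coefficient of variation over the 4 libraries, in percent, against mean TPM, both on log axes, for the 34 Zbtb genes (red) and the 9933 protein-coding genes at 1 TPM in every library (grey). The Zbtb genes lie within the grey cloud, with Zbtb3 at 35.8% and Zbtb4 at 2.27%.

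Upstream sequence of the family was rich in CpG. RefSeq promoter entries matched 35 of the 40 genes, all but Zbtb10, Zbtb16, Zbtb40, Zbtb48 and Zbtb7c, and the 250 bases before the start were used. The median GC content was 64.8%, against 56.0% over 16469 protein-coding promoters of the same length. The ratio of observed to expected CpG was 0.6 or more in 28 of 35 members, 80%, against 46.8% of all promoters. Among genes at 1 TPM in every library it was 27 of 31 Zbtb genes, 87.1%, against 72.4% of 7980 protein-coding genes. Zbtb32, Zbtb8b and Zbtb46, the matched members with counts that lay under 1 TPM, were all below 0.6. The RefSeq start of Zbtb46 lies 35038 bases inside the gene. Of protein-coding genes not at 1 TPM in every library, 22.8% had a ratio at or above 0.6. Zbtb9, whose level could not be read, was above it. Zbtb4, near the top of the levels, had a ratio of 0.487.

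**Figure D5:**
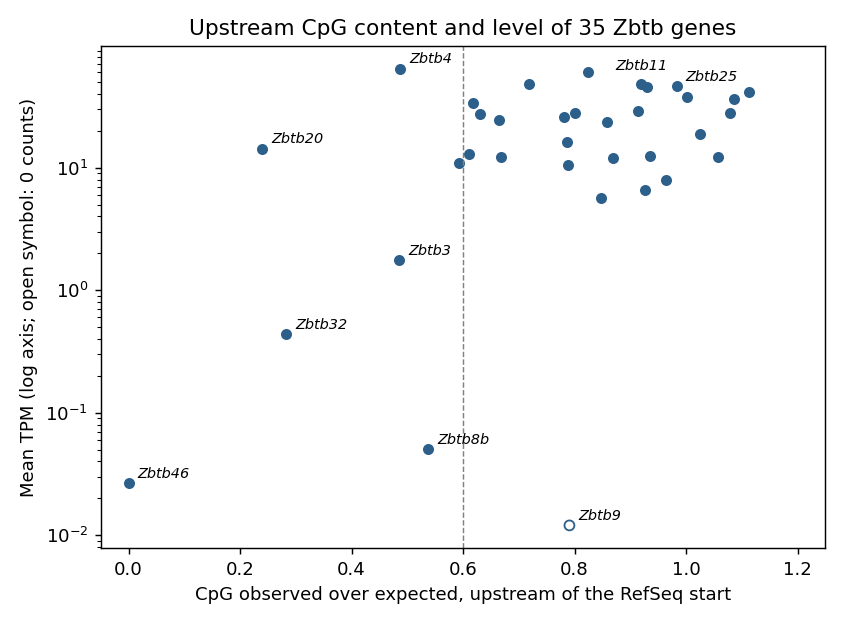
Mean TPM on a log axis against the ratio of observed to expected CpG in the 250 bases before the RefSeq start, for 35 Zbtb genes; the dashed line marks 0.6 and the open symbol a gene with 0 counts, drawn at the bottom. Most genes above 1 TPM lie right of the line, apart from Zbtb4, Zbtb20, Zbtb3 and Zbtb5, the last just left of it.

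A search on both strands for 4 short motifs found GGGCGG, the GC box, in 22 of the 35 windows, 62.9%, against 44.3% of all promoters. CCGGAA, the core of ETS family sites, was in 12, 34.3%, against 15.7%. CACGTG, an E-box that reads the same on both strands, was in 4, 11.4%, against 6.82%, and TATAAA in 2, 5.71%, against 11.9%. Among the 31 matched Zbtb genes at 1 TPM in every library the shares were 67.7%, 38.7%, 12.9% and 6.45%. Over protein-coding genes at that level they were 61.2%, 25.5%, 8.92% and 5.66%. Each difference was smaller than that over all promoters, and for TATAAA it also changed sign. A match is a description of letters and not of a bound site. For 24 of the 35 genes the RefSeq start lay within 100 bases of the gene's start in the tables, and for 5, Zbtb20, Zbtb46 and Zbtb38 among them, it lay over 10000 bases inside the gene, so those windows are within it.

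Genes that work with the family were present as well. The genes named here of corepressors and of the ubiquitin ligase scaffold that BTB domains bind were above 1 TPM in every library: Ncor1 averaged 169 ± 6.88 TPM, Cul3, the scaffold, 145 ± 3.01 TPM and Sin3a 101 ± 1.93 TPM (SD, n = 4). Bcor, Sin3b and Hdac3 averaged 81.0, 72.0 and 66.7 TPM. Each of these 6 genes had a higher mean than any of the 40 Zbtb genes. The ranges of Hdac3 (60.1 to 71.7 TPM) and Sin3b (64.8 to 80.8 TPM) overlapped that of Zbtb4 (63.0 to 66.4 TPM). Of 8 BTB zinc finger genes with other symbols, 6 were at 1 TPM in every library. Zfp131 averaged 82.5 ± 0.507 TPM, above each of the 40 Zbtb genes, and Patz1, a zinc finger gene of thymocyte development, averaged 50.2 ± 5.67 TPM. Mynn, Gzf1, Bcl6, the repressor of germinal centre B and follicular helper T cells, and Hic2 averaged 23.9, 18.1, 12.7 and 3.67 TPM. Hic1 lay at 0.696 ± 0.242 TPM and Bcl6b had 4 counts in all. Among the tested genes named here from both lists the lowest adjusted p for spread was 0.868, for Sin3b, by edgeR's test with Benjamini-Hochberg adjustment.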

How the data were processed

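Fragments were counted per gene in 1 table per library, and the deposited values are those raw counts. Per the file headers, the authors counted exons of GENCODE M13 (mm10) with featureCounts 1.4.6-p4, paired fragments, both ends mapped, reverse-strand setting. No source used here names the aligner's version. Per the labels the assay is total RNA-seq, but the library protocol they link is for polyadenylated RNA, so other RNA may be missed.

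Gene symbols were taken from GENCODE M21 and matched 50376 of 50600 IDs. TPM was computed from the deposited counts and union exon lengths, which lowers genes with long, rarely used exons such as Zbtb20. A threshold of 1 TPM was used, with exact Poisson intervals for low counts. Spread was fitted on all 12464 genes past filterByExpr with edgeR 4.0.16 in R 4.3.3 (TMM, intercept only, robust) and tested on simulated data. DESeq2 1.42.0, Python 3.11.15, numpy 2.4.6, pandas 2.3.3 and scipy 1.17.1 served the rest. The members, lists and pairs were chosen with earlier results of these data known. Every member is named; library values are given for the 15 of highest mean, role lists, pairs and the 5 of largest coefficient of variation. Alternatives covered thresholds, totals, normalization, filters, pseudocounts, lengths and left-out replicates. Some genes on the lists are not reported here.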

Additional observations from a re-analysis of the deposited data

How the results depend on the processing

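The count of 34 members at 1 TPM in every library was 33 or 34 under each alternative threshold, unit, total and length tried, and with each replicate left out. The median level of 17.6 TPM moved to 20.01 TPM with a total of nuclear protein-coding genes alone and to 18.8 TPM without Zbtb8os, and ran between 17.1 and 17.8 TPM with 1 replicate left out. That total raised the mean of 32 members by over 1 SD. Exon length free of same-strand overlap, chosen after seeing the data, did so for Zbtb6 alone, to 31.0 TPM. Calls for excess spread among members went from 0 to 1, Zbtb20, with no filter, and were 0 to 1 with 1 replicate left out. Over all genes the 24 calls became 349 with no filter, 10 at a mean CPM of 5 or more, 6 among nuclear protein-coding genes, 5 without the robust fit, 108 as DESeq2 dispersion outliers, and 7 to 86 with 1 replicate left out, lowest without replicate 3 and highest without replicate 4. The cause was not tested. The pair ratios kept their direction except without length correction, where Zbtb20 over Zbtb45 came to 2.13 and Zbtb1 over Zbtb25 to 1.29, by construction, since the longer gene gains. No paired analysis was possible because the series has 1 group. Depth limits 5 of the 6 members under 1 TPM, which rest on 5 to 45 counts each. The other, Zbtb9, could not be counted because it shares most of its exon bases with Ggnbp1.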
